A study of Mus musculus with 4 samples.

Results

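The enzymes that build cholesterol and fatty acids, with the factors that set their transcription, were followed in splenic Esam dendritic cells (DC) in which the transcription factor gene Runx3 had been deleted. The members are 34 genes chosen by their known function: 18 enzymes of the sterol arm, 9 of the fatty acid arm, 5 regulators of the sterol regulatory element binding proteins (SREBP), and Stard4 and Lpin1, which handle sterol and lipid. Of these, 32 had a probe set of their own that reached a log2 value of 6.5 on at least 1 array, among 9894 such genes on the arrays. Acat2 had no probe set annotated with its symbol alone, and Tm7sf2, at 5.93 and 6.01 on the cKO arrays and at 5.81 and 6.02 on the wt arrays, stayed under that limit. A gene with several probe sets was represented by the brightest.

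After magnetic enrichment of spleen cells, CD11c+ MHCII+ cells were sorted by Esam, CD4 and CD8 in both genotypes. The cKO mice (genotype label DCRunx3 -/-) combined floxed Runx3 alleles with Cre driven by the CD11c promoter, which acts in all CD11c-expressing cells and not in Esam DC alone. The wt mice (DCRunx3 +/+) were their littermates, and the labels do not say whether they carried floxed alleles without Cre. Each genotype had 2 mice, 6 weeks old, 1 in each of 2 litters, with 1 Affymetrix array per mouse. Levels are log2 values from robust multichip averaging (RMA), each difference subtracts the wt mean from the cKO mean of these, and errors are SD (n = 2) or limma's standard error (SE). A level can be compared between arrays but not between genes.

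The labels give all mice as male, yet Xist, the RNA that coats an inactive X chromosome, was at 12.78 (cKO) and 12.75 (wt) in litter 1 and at 5.19 (cKO) and 5.15 (wt) in litter 2, and the Y-linked gene Kdm5d ran the other way, so each genotype held 1 array of either kind. The Runx3 probe set was at 11.47 and 11.45 in cKO and at 11.37 and 11.51 in wt, and since its place relative to the deleted part is not stated, this is no check of the labels. All 10 DC markers examined were above the limit on at least 1 array. None of the T cell (Cd3e, Cd3g) or neutrophil (S100a8, S100a9, Mpo, Elane) markers with a probe set of their own was. By sign, 6 of the 10 DC markers were higher in cKO and 4 lower, between Itgam at a difference of 0.75 and Zbtb46 at -0.28. Markers of other cells also moved with genotype. For the 8 markers of the cross-presenting subset cDC1 the summed linear value was 12140 to 13133 in cKO and 5273 to 5993 in wt, with 6 of 8 higher past the study's thresholds (1.5-fold, unadjusted p no higher than 0.05), which 0.9% of all tested probe sets passed higher and 0.514% lower. Over 7 macrophage markers it was 10766 to 11652 in cKO and 7676 to 8577 in wt. The sum over 5 markers of plasmacytoid DC was 2372 to 2583 in cKO and 1484 to 1518 in wt. Over 3 B cell markers it was 3008 to 3603 in cKO and 1928 to 2989 in wt. Batf3 of the cDC1 markers (-0.29) and Bst2 of the plasmacytoid DC markers (-0.12) were lower in cKO, and no macrophage or B cell marker was. Cox6a2 had the largest difference among the plasmacytoid DC markers, at 9.11 and 9.38 in cKO and at 6.36 and 6.77 in wt. Cell cycle genes lay lower in cKO in all 24 cases measured (median difference -0.18), where 55.1% of all tested probe sets were lower and their median was -0.02. Of these, 3 had an unadjusted limma p under 0.05, beside 4.81% of all probe sets in that direction. The part of these shifts in the results below was not tested. In RNA from a sorted population, fewer cells of a type and less RNA per cell cannot be told apart.

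Cholesterol is made from acetyl-CoA through the mevalonate pathway to farnesyl diphosphate, then through squalene to the first sterol, lanosterol, which a further set of enzymes trims to cholesterol. SREBP2, made from Srebf2, drives most of these genes, whereas SREBP1, made from Srebf1, leans towards fatty acid synthesis. Both precursors sit in the endoplasmic reticulum bound to Scap, which carries them to the Golgi for cleavage when membrane sterol is low, and the Insig proteins hold Scap back when sterol is plentiful.

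SREBP is known to bind sterol regulatory elements close to the start of its target genes, usually beside sites for the factor NF-Y, which reads the CCAAT box. RefSeq promoter windows (build GRCm38.p6) were matched by symbol for 25 of the 32 measured members. No entry was matched for Fdps, Fdft1, Sqle, Fads1, Scd1, Scd2 or Stard4. The 250 bases before the start are shown for sterol enzymes with a large difference and a matched window (Hmgcs1, Idi1 and Msmo1), for Srebf2, and for the fatty acid enzymes Fasn and Elovl6, which lay on opposite sides of the comparison. Each reads 5′ to 3′ on the gene's own strand, and capitals mark TCACNCCA (the core of a sterol regulatory element, N being any base), CACGTG (an E-box) and CCAAT on either strand.
Hmgcs1 (chr13:119690101-119690350, plus strand): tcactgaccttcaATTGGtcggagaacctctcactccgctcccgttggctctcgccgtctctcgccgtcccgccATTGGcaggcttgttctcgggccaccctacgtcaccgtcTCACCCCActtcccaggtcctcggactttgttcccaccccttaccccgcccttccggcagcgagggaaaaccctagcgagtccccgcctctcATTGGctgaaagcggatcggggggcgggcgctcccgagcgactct
Idi1 (chr13:8885356-8885605, plus strand): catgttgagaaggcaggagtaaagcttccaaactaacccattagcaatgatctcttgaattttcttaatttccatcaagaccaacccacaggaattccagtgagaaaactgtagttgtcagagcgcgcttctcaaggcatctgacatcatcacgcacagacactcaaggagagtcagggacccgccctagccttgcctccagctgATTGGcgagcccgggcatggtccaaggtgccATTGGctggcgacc
Msmo1 (chr8:64733579-64733828, minus strand): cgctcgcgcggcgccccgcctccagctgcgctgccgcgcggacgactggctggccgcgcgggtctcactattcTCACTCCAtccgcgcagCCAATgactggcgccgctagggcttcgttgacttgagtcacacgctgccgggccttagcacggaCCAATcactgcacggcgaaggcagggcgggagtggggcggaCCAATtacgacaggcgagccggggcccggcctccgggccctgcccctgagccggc
Srebf2 (chr15:82147019-82147268, plus strand): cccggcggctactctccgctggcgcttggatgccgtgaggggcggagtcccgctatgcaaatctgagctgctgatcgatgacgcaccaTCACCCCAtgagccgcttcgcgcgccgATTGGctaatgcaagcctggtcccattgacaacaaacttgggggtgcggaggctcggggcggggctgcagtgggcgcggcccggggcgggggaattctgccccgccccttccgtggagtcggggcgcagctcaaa
Fasn (chr11:120824548-120824797, minus strand): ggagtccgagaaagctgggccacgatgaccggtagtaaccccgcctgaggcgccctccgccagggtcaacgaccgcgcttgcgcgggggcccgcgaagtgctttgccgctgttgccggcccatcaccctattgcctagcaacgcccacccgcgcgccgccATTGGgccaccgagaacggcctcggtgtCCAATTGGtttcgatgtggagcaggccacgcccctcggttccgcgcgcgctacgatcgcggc
Elovl6 (chr3:129532136-129532385, plus strand): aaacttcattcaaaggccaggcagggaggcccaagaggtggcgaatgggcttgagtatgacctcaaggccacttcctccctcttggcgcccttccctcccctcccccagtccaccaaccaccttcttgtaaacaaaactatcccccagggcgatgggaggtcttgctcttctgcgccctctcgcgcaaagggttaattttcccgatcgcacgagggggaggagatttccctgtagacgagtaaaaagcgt

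The sterol element core was found in 3 of 33 member windows (9.09%), those of Hmgcs1, Msmo1 and Srebf2, against 3.67% of all 32851 windows of this length. Its first letter lay 137 bases before the start in Hmgcs1, 177 in Msmo1 and 162 in Srebf2, and CCAAT letters on one or the other strand began 176, 160 and 135 bases before the start in the same 3 windows. CCAAT letters were found in 20 of 33 member windows (60.6%), against 33.8% of all windows, CACGTG in 6 (18.2%), against 6.02%, and the GC box GGGCGG, not marked above, in 22 (66.7%), against 32.7%. In Fasn the capitals nearest the start hold 2 overlapping CCAAT matches, 1 per strand. Elovl6 held no marked letters. A match describes letters only, and windows without one say nothing about binding.

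**Figure D1:**
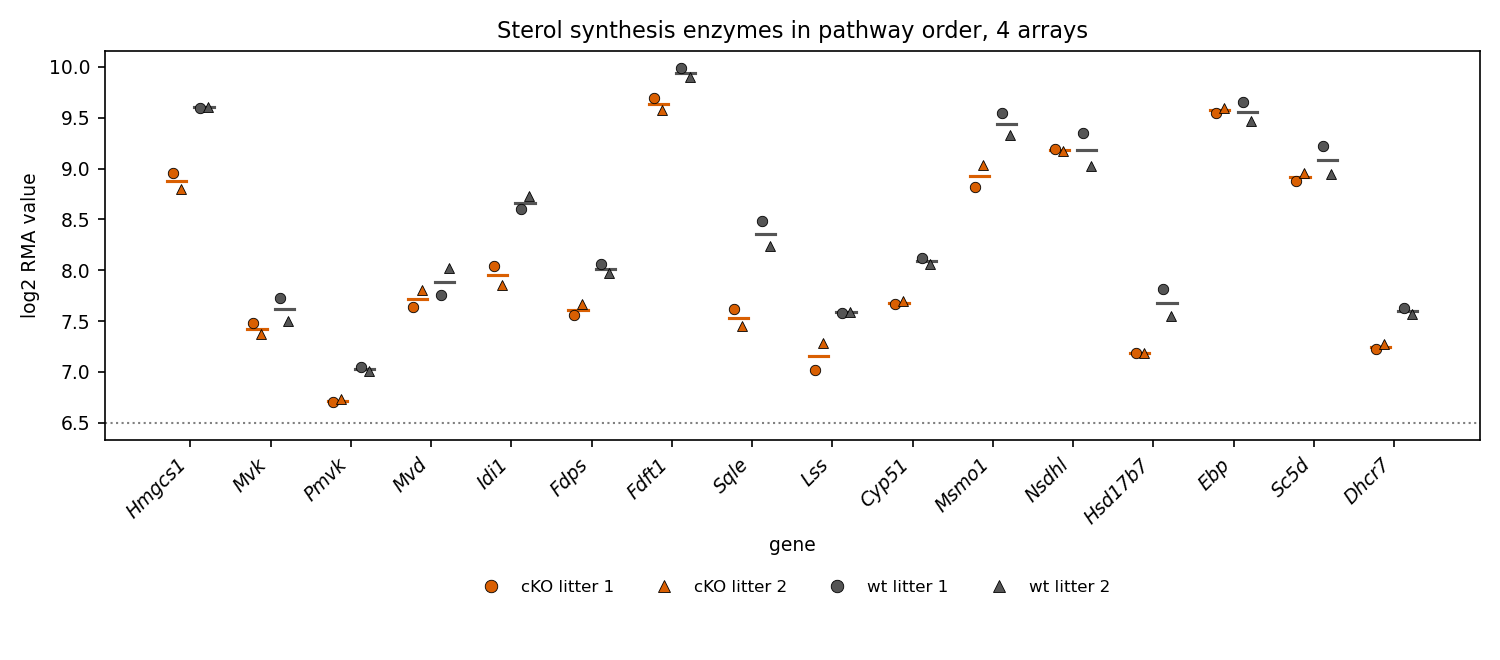
Log2 RMA values (y axis) of the 16 measured sterol enzymes in pathway order (x axis) on 4 arrays, cKO in orange left of wt in grey. Circles are litter 1, triangles litter 2, bars are means of 2 arrays and the dotted line is the limit of 6.5. Both cKO arrays lie under both wt arrays for 12 of the 16 enzymes.

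Transcripts of the sterol arm were lower in cKO along most of the pathway. Of 16 measured enzymes, 15 were lower by sign, the least of them Nsdhl at a difference of -0.00, and 1 (Ebp) was higher at 0.01. The median difference was -0.38, beside -0.02 over all 18889 tested probe sets. Both cKO arrays lay below both wt arrays for 12 of 16 enzymes, which held for 23.7% of all tested probe sets, and both lay above for none, against 16.4%. An unadjusted limma p under 0.05 was reached by 11, all lower, beside 4.81% of tested probe sets lower and 4.57% higher, but this count was 3 without cKO replicate 1 and 6 without cKO replicate 2. No enzyme passed the adjusted test, which 0 of 18889 probe sets passed (0%). The study's own thresholds ask for a change of 1.5-fold or more and for the methods' one-way test to give an unadjusted p no higher than 0.05. They were passed by Hmgcs1, Idi1 and Sqle, all lower, where 0.514% of tested probe sets passed lower and 0.9% higher. With the litter as a block Sqle alone of these 3 passed. Without either cKO array Hmgcs1 still passed, but Idi1 and Sqle did not. Without either wt array Hmgcs1, Idi1 and Sqle all failed to pass. Hsd17b7, which had not passed on all arrays, passed without wt replicate 2.

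Hmgcs1, which encodes the cytosolic HMG-CoA synthase at the entry of the mevalonate pathway, was at 8.95 and 8.80 on the cKO arrays, against 9.60 and 9.60 on the wt arrays. The cKO arrays thus lay well apart from a tight wt pair, 1.65-fold lower (difference -0.73, SE 0.10, limma, adjusted p = 0.215), and 0.683% of tested probe sets had a lower difference. Its promoter window is the one with the sterol element core 137 bases before the start.

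The next 3 enzymes turn mevalonate into isopentenyl diphosphate. The mevalonate kinase gene Mvk averaged 7.43 ± 0.077 in cKO and 7.62 ± 0.16 in wt (SD, n = 2 each). The phosphomevalonate kinase gene Pmvk averaged 6.72 ± 0.020 in cKO and 7.03 ± 0.031 in wt. The decarboxylase gene Mvd was at 7.63 and 7.80 in cKO and at 7.75 and 8.02 in wt. Genotypes overlapped for Mvd alone, and the differences were -0.19 (SE 0.12) for Mvk, -0.31 (SE 0.08) for Pmvk and -0.17 (SE 0.14) for Mvd. Mvk was at -0.075 without wt replicate 1 and at -0.31 without wt replicate 2, and Mvd at -0.30 without wt replicate 1, -0.085 without cKO replicate 1 and -0.036 without wt replicate 2. The limma adjusted p ran between 0.428 and 0.785.

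Idi1 encodes the isomerase that makes dimethylallyl diphosphate, the primer of isoprenoid chains. It was at 8.04 and 7.86 in cKO, against 8.60 and 8.73 in wt. The groups lay far apart in both litters, 1.64-fold lower in cKO (difference -0.72, SE 0.11, limma, adjusted p = 0.238). A second, dimmer Idi1 probe set read 7.85 and 7.83 in cKO and 8.55 and 8.65 in wt, a difference of -0.76.

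Fdps makes farnesyl diphosphate, the branch point for sterols, prenylated proteins, dolichol and ubiquinone, and Fdft1 encodes squalene synthase, the first enzyme committed to sterols. Fdps was at 7.56 and 7.66 in cKO and at 8.06 and 7.97 in wt (difference -0.41, SE 0.09). Fdft1 was at 9.69 and 9.58 in cKO and at 9.98 and 9.90 in wt (-0.31, SE 0.09), and its second probe set differed by -0.45. Neither gene's groups overlapped, and the limma adjusted p was 0.369 for Fdps and 0.473 for Fdft1.

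Sqle, squalene epoxidase, a rate-setting step of the sterol branch, had the widest gap of all 32 measured members. It was at 7.62 and 7.45 in cKO, against 8.49 and 8.23 in wt, 1.77-fold lower (difference -0.83, SE 0.13, limma, adjusted p = 0.243). The gap was similar within litter 1 (-0.87) and litter 2 (-0.78), and 76 of the tested probe sets (0.402%) had a lower difference. Lss, lanosterol synthase, which closes the sterol rings, was at 7.02 and 7.29 in cKO and at 7.58 and 7.59 in wt (-0.44, SE 0.12).

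Past lanosterol, 4 of 7 measured enzymes were lower with no overlap, beside 23.7% of all tested probe sets, and 3 overlapped. Cyp51, the lanosterol demethylase, was at 7.67 and 7.69 in cKO and at 8.12 and 8.06 in wt, a difference of -0.41 (SE 0.08) with tight pairs on both sides. Msmo1, the sterol methyl oxidase, whose window holds the second of the sterol element matches, was at 8.82 and 9.04 in cKO and at 9.54 and 9.33 in wt (-0.51, SE 0.13). Hsd17b7, the ketosteroid reductase of the same demethylation complex, was at 7.19 and 7.18 in cKO and at 7.82 and 7.55 in wt (-0.50, SE 0.12). For these 3 genes the cKO arrays stayed under the wt arrays, and the limma adjusted p ran between 0.325 and 0.417. Dhcr7, which makes cholesterol in the last step of one route, was also lower, at 7.22 and 7.28 in cKO and 7.62 and 7.57 in wt (-0.35, SE 0.09, limma, adjusted p = 0.398).

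Nsdhl, the dehydrogenase that works between Msmo1 and Hsd17b7, was at 9.19 and 9.18 in cKO and at 9.35 and 9.02 in wt. Ebp, the sterol isomerase, was at 9.55 and 9.59 in cKO and at 9.65 and 9.47 in wt. Sc5d, the sterol desaturase, was at 8.88 and 8.96 in cKO and at 9.22 and 8.95 in wt. In all 3 the wt arrays spread around or reached the cKO values, so genotypes overlapped. The 95% limma interval of the difference was -0.38 to 0.38 for Nsdhl, -0.27 to 0.30 for Ebp and -0.51 to 0.18 for Sc5d, so a difference of the size measured for Cyp51 lies outside the intervals of Nsdhl and Ebp and inside that of Sc5d. The Sc5d difference of -0.17 came to -0.033 without wt replicate 1 and to -0.30 without wt replicate 2. Over the 9 measured enzymes up to lanosterol the median difference was -0.41, with all 9 lower in both litters. Over the 7 after it the median was -0.35, with all 7 lower in litter 1 and 4 lower in both. Of all tested probe sets, 61.8% were lower in cKO in litter 1 and 48.1% in litter 2. The 2 stretches of the pathway were not tested against each other.

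**Figure D2:**
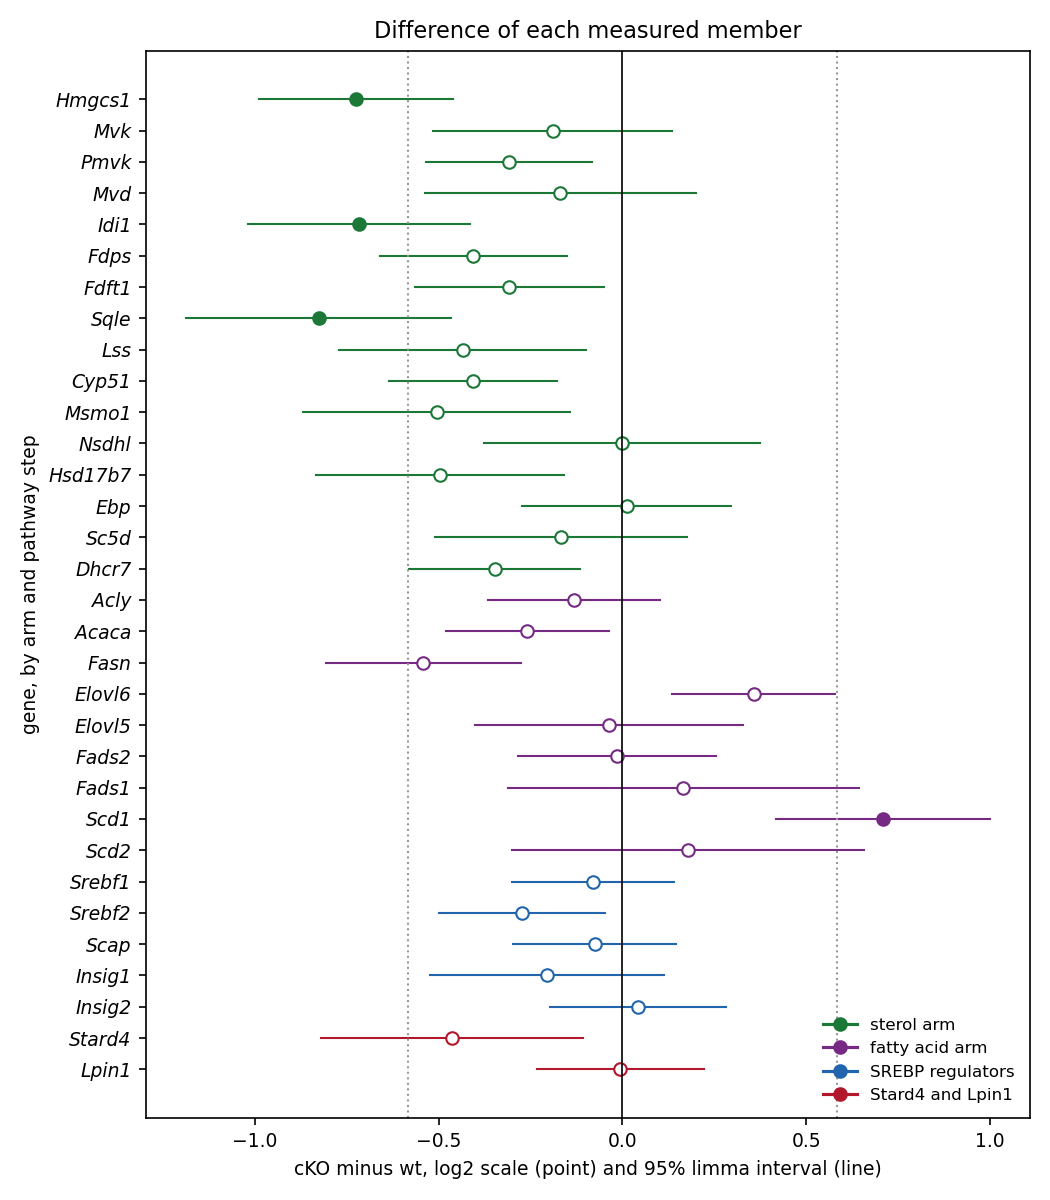
Difference cKO minus wt on the log2 scale (x axis, points) with its 95% limma interval (lines) for each of the 32 measured members (y axis), by arm and pathway step. Filled points passed the study's thresholds, among them Scd1, whose wt arrays lay under the limit of 6.5, and dotted lines mark a 1.5-fold change. Sqle is lowest at -0.83 and Scd1 highest at 0.71.

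Members of the fatty acid arm lay on both sides of 0. Of 9 measured enzymes, 5 were lower and 4 higher by sign, with a median difference of -0.01, beside -0.02 over all tested probe sets. Without cKO replicate 1 this median was 0.10 and without cKO replicate 2 -0.090. Scd1 was above the limit of 6.5 in cKO only and so entered the test through the genotype where it is high. It is left out of the counts in the rest of this paragraph. Among the other 8 enzymes, genotypes did not overlap for 3 lower ones (Acly, Acaca, Fasn), beside 23.7% of all tested probe sets, and for 1 higher one (Elovl6), beside 16.4%. An unadjusted limma p under 0.05 was reached by 2 lower (4.81% of all probe sets) and 1 higher (4.57%), and the study's thresholds by none. The lower and the higher count both fell without either cKO array, and the lower one also fell without wt replicate 2. Acly, Acaca and Fasn build acetyl-CoA into palmitate, and Elovl6 and Scd1 elongate and desaturate its products.

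Acly, which splits citrate to supply acetyl-CoA to both arms, was at 9.95 and 9.99 in cKO and at 10.06 and 10.14 in wt, a difference of -0.13 (SE 0.09). Acaca, acetyl-CoA carboxylase, the committed step, was at 9.28 and 9.26 in cKO and at 9.52 and 9.54 in wt (-0.26, SE 0.08, limma, adjusted p = 0.477). Its dimmer probe set differed by -0.47. Fasn, fatty acid synthase, had the widest gap among the lower enzymes of the arm, at 9.29 and 9.34 in cKO, against 9.93 and 9.78 in wt, 1.46-fold lower (-0.54, SE 0.10, limma, adjusted p = 0.281). On all 4 arrays Fasn was short of the 1.5-fold limit, and 1.84% of tested probe sets had a lower difference. Without wt replicate 2 its difference was -0.62 and without wt replicate 1 -0.47.

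Scd1, a stearoyl-CoA desaturase that makes monounsaturated fatty acids, ran the other way. It was at 7.09 and 7.29 in cKO, against 6.48 and 6.47 in wt, where both arrays lay just under the limit of 6.5. Measured against that limit, the cKO mean of 7.19 was at least 1.61-fold higher. As a description, the measured values differed by 0.71, and by 0.60 in litter 1 and 0.81 in litter 2. Its paralog Scd2 was at 10.42 and 10.87 in cKO and at 10.50 and 10.43 in wt, so that cKO replicate 2 was high and cKO replicate 1 lay among the wt arrays (0.18, SE 0.18). Without cKO replicate 1 the difference was 0.40 and without cKO replicate 2 -0.046. The 95% limma interval for Scd2 was -0.30 to 0.66.

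Elovl6, which elongates palmitate to stearate, was at 7.87 and 7.86 in cKO, against 7.52 and 7.49 in wt, 1.28-fold higher with both pairs tight (0.36, SE 0.08, limma, adjusted p = 0.368). Elovl5, which elongates polyunsaturated chains, was at 11.48 and 11.75 in cKO and at 11.58 and 11.73 in wt, where litters differed more than genotypes. The desaturase genes of polyunsaturated fatty acids also overlapped. Fads2 was at 6.55 and 6.70 in cKO and at 6.67 and 6.61 in wt, close to the limit, and Fads1 at 8.52 and 8.90 in cKO and at 8.43 and 8.67 in wt (0.17, SE 0.18), a difference that was 0.36 without cKO replicate 1, 0.29 without wt replicate 2, 0.046 without wt replicate 1 and -0.026 without cKO replicate 2.

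**Figure D3:**
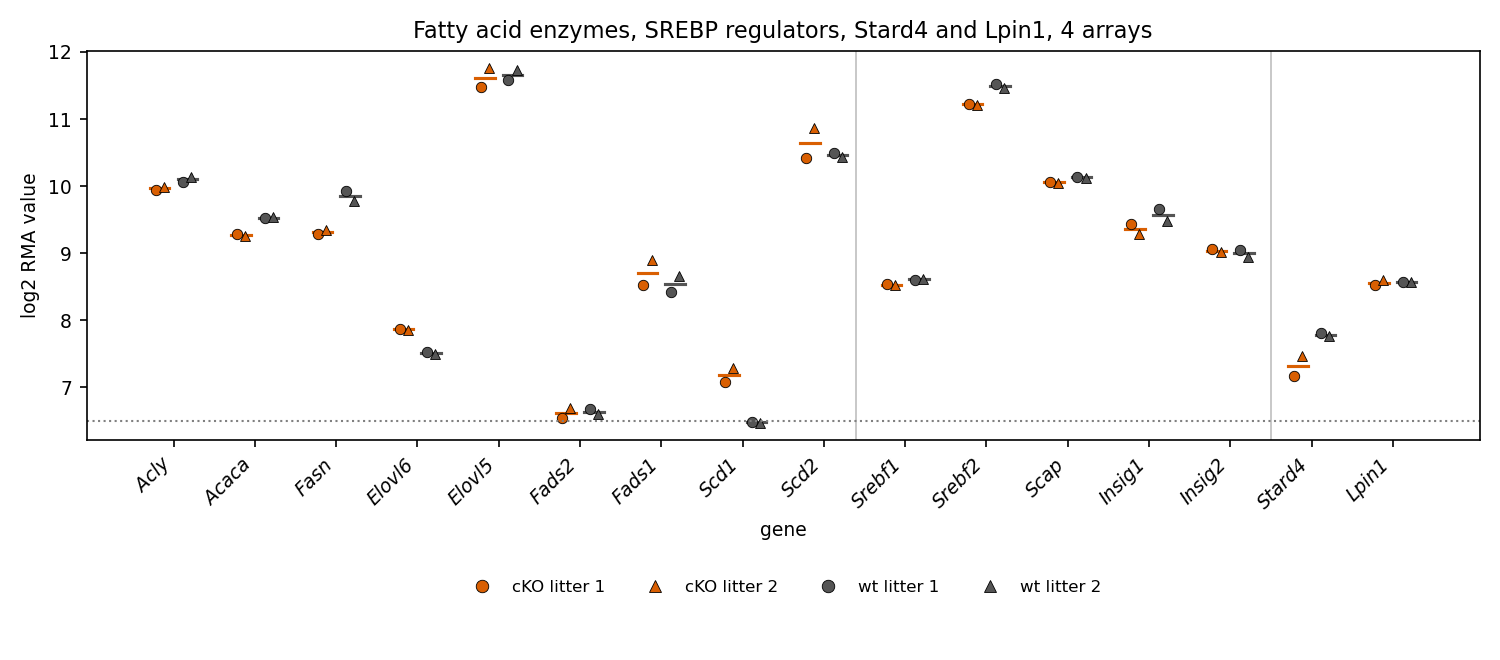
Log2 RMA values (y axis) of the 9 fatty acid enzymes, 5 SREBP regulators, Stard4 and Lpin1 (x axis, groups divided by grey lines) on 4 arrays, cKO in orange left of wt in grey. Circles are litter 1, triangles litter 2, bars are means of 2 arrays and the dotted line is the limit of 6.5. Fasn lies lower and Elovl6 higher in cKO with no overlap, beside 23.7% of all tested probe sets lower and 16.4% higher. Scd1 lies above the limit in cKO only and so entered the test through the genotype where it is high.

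Among the 5 regulators the median difference was -0.08, beside -0.02 over all tested probe sets, and none passed the study's thresholds. In both litters 4 of 5 were lower in cKO. Of all tested probe sets, 61.8% were lower in litter 1 and 48.1% in litter 2. Srebf2 was at 11.22 and 11.22 in cKO, against 11.52 and 11.46 in wt, 1.21-fold lower (-0.27, SE 0.08, limma, adjusted p = 0.470). It was the regulator with the widest gap. Srebf1 was at 8.54 and 8.52 in cKO and at 8.61 and 8.61 in wt (-0.08, SE 0.08), and Scap at 10.06 and 10.05 in cKO and at 10.14 and 10.13 in wt (-0.08, SE 0.08). Both pairs were tight and did not overlap, beside 23.7% of all tested probe sets lower in cKO with no overlap. A lower difference than that of Srebf1 was found for 34.8% of tested probe sets, and than that of Scap for 35.8%. The 95% limma interval was -0.30 to 0.14 for Srebf1.

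Insig1, itself a known SREBP target and the feedback arm of the pathway, was at 9.44 and 9.28 in cKO and at 9.66 and 9.47 in wt, lower within litter 1 (-0.22) and litter 2 (-0.20) while the litters differed by about as much. The difference was -0.21 (SE 0.12, limma, adjusted p = 0.697), and -0.12 without cKO replicate 2 and -0.11 without wt replicate 1. Insig2, which in liver is set by other signals, was at 9.06 and 9.02 in cKO and at 9.04 and 8.95 in wt, with overlap (0.04, SE 0.09). Stard4, a carrier of cholesterol between membranes and a known SREBP2 target, was at 7.17 and 7.47 in cKO and at 7.81 and 7.76 in wt. It was 1.38-fold lower with no overlap (-0.46, SE 0.13, limma, adjusted p = 0.443). Without cKO replicate 2 its difference was -0.61 and without cKO replicate 1 -0.32. Lpin1, a phosphatidate phosphatase, was at 8.53 and 8.59 in cKO and at 8.57 and 8.57 in wt (-0.01, SE 0.08), and genotypes overlapped.

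**Figure D4:**
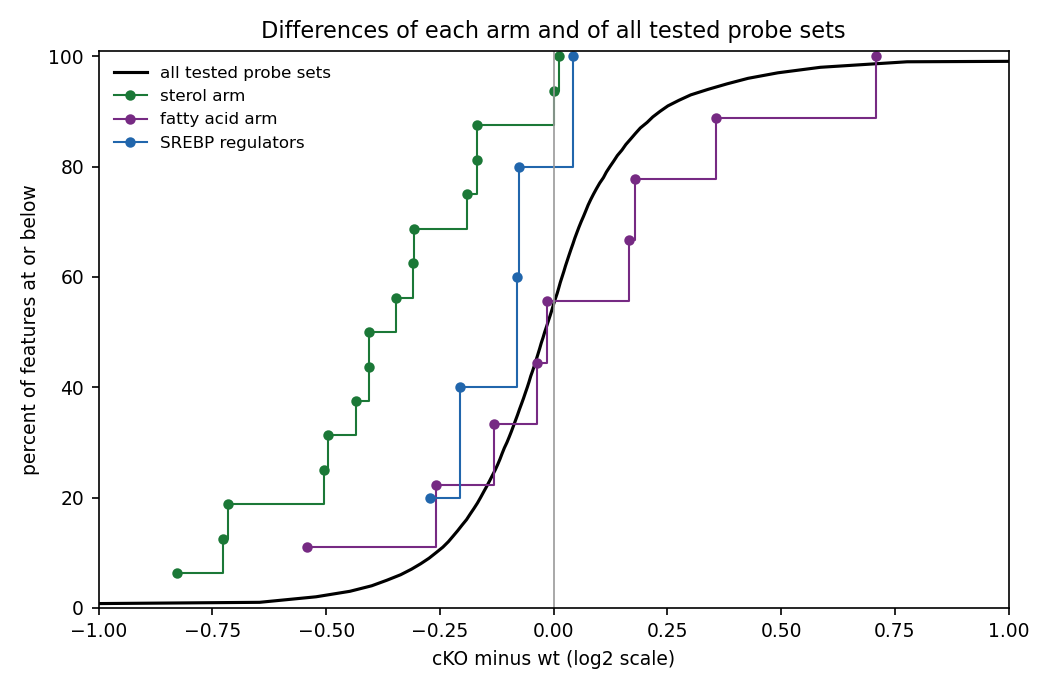
Percent of features (y axis) at or below each difference cKO minus wt on the log2 scale (x axis), for all tested probe sets (black) and for 16 sterol enzymes, 9 fatty acid enzymes and 5 SREBP regulators (coloured steps). From -0.83 upward the sterol steps lie left of the black line, with a median of -0.38, and the fatty acid steps cross it, with a median of -0.01.

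In litter 1 all 16 sterol enzymes were lower in cKO, with a median difference of -0.43, and in litter 2 13 were, with a median of -0.30. Of all tested probe sets, 61.8% were lower in cKO in litter 1 and 48.1% in litter 2. The litters also differed in Xist and Kdm5d, so a difference between litters cannot be told apart from one of sex. The 3 enzymes past the study's thresholds were lower in both litters, Idi1 at -0.56 in litter 1 and -0.87 in litter 2, Hmgcs1 at -0.65 and -0.81, and Sqle at -0.87 and -0.78. Msmo1 was further apart in litter 1 (-0.72) than in litter 2 (-0.29). The fatty acid arm, Scd1 included, had a median of -0.10 in litter 1 and 0.09 in litter 2. In both litters 3 of its enzymes were lower and 3 higher (Elovl6, Fads1 and Scd1). Of these 3, Scd1 was above the limit of 6.5 in cKO only and so entered the test through the genotype where it is high. Fasn was at -0.64 in litter 1 and -0.44 in litter 2, and Elovl6 at 0.34 and 0.37.

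**Figure D5:**
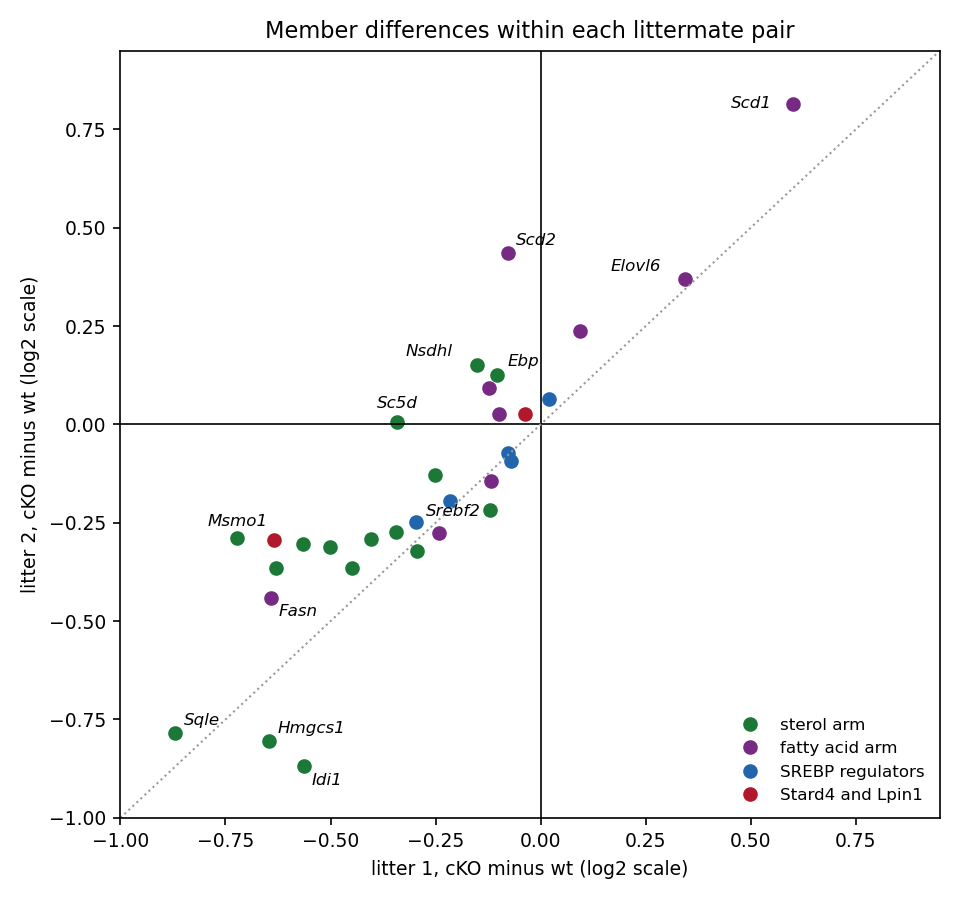
Difference cKO minus wt on the log2 scale within litter 1 (x axis) and within litter 2 (y axis) for each of the 32 measured members, coloured by arm. The dotted line marks equal differences. Sqle is lowest in litter 1 at -0.87 and Idi1 lowest in litter 2 at -0.87, Scd1 is highest in both, and Nsdhl, Ebp, Sc5d, Elovl5, Fads2, Scd2 and Lpin1 are below 0 in litter 1 and above 0 in litter 2.

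Other genes of the pathway were read from lists of known function. In the isoprenoid branch that leaves the pathway at farnesyl diphosphate, 12 genes were measured, with a median difference of -0.03, a range of -0.14 (Pdss2) to 0.16 (Dhdds), and 0 at an unadjusted limma p under 0.05. Among 12 genes of SREBP transport and cleavage or sterol-regulated degradation the median was -0.06 and again 0 reached it, with the scaffold gene Erlin2 at -0.21 (SE 0.08) and the adaptor gene Ubxn8 at 0.37 (SE 0.14). Of 13 other genes of fatty acid synthesis and elongation (median -0.03) 1 did, beside 4.81% of all tested probe sets lower and 4.57% higher. This was the acetoacetyl-CoA synthetase gene Aacs, which feeds ketone bodies into lipid synthesis. Aacs was at 7.54 and 7.55 in cKO, against 7.95 and 7.96 in wt (-0.41, SE 0.08, limma, adjusted p = 0.308). Acss2, which activates acetate, differed by 0.29 (SE 0.15). None of the genes in these lists passed the study's thresholds.

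Of 7 measured genes of the sterol-sensing LXR receptors and cholesterol efflux, Abca1 was above the limit of 6.5 in cKO only. Among the other 6, 5 were higher in cKO with no overlap (16.4% of all tested probe sets), the median difference was 0.34, and 1 passed the study's thresholds (0.9% of all probe sets higher). This was Nr1h3, the LXR-alpha gene, at 8.03 and 7.93 in cKO, against 7.29 and 7.01 in wt (0.83, SE 0.13, limma, adjusted p = 0.239). An unadjusted limma p under 0.05 was reached by 2 of the 6, both higher, beside 4.57% of all tested probe sets. The efflux pump gene Abca1 was at 6.91 and 7.15 in cKO and at 6.17 and 6.44 in wt.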

How the data were processed

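Esam DC were sorted from spleens of 2 cKO and 2 wt mice and hybridised to Affymetrix arrays, 1 per mouse. The authors deposited log2 values normalized by RMA with GC correction in Partek, per the study's methods and the submitters' processing notes, which also name mm9, and these were used as given. Of 35399 probe sets, 18889 reached 6.5 on at least 1 array and were tested with limma 3.58.1 in R 4.3.3 (lmFit and eBayes, cKO minus wt), with Benjamini-Hochberg adjustment over all 18889. The platform annotation gave 1 symbol to 21789 probe sets, several to 1621 and none listed for 11989. Intensity over background is not in these values, and 2 arrays per genotype limit the precision. The study's thresholds were computed alongside. Litter numbers come from the labels, and deviations of same-litter arrays correlated at r = 0.27, so a fit with litter as a replicate block was run, beside other scalings, limits and left-out arrays. Scripts were tested on simulated data. The members and gene lists were chosen with earlier results of these data known. By the naming rule, values were given for members past the study's thresholds, regulators, entry enzymes, paralog pairs and, per arm, the 5 smallest p, the member nearest 0 and those of opposite sign. The remaining sterol enzymes were added after their values were seen. Of other lists up to 4 genes with the smallest p were open to naming. Leaving genes above 6.5 in 1 genotype only out of their lists' counts was decided after seeing the data.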

Additional observations from a re-analysis of the deposited data

Results flagged for a closer look

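For 7 members the cKO array was lower than its wt littermate in litter 1 and higher in litter 2, and the difference between litters was not tested. Xist was high on both arrays of litter 1 and low on both of litter 2, so litter and sex cannot be told apart here. Nsdhl differed by -0.15 (cKO minus wt) in litter 1 and by 0.15 in litter 2, and Ebp by -0.10 in litter 1 and by 0.13 in litter 2. Sc5d differed by -0.34 in litter 1 and by 0.0058 in litter 2. In the fatty acid arm Elovl5 differed by -0.098 in litter 1 and by 0.026 in litter 2, Fads2 by -0.12 in litter 1 and by 0.093 in litter 2, and Scd2 by -0.078 in litter 1 and by 0.43 in litter 2. Lpin1 differed by -0.038 in litter 1 and by 0.026 in litter 2. Over all tested probe sets 61.8% were lower in cKO in litter 1 and 48.1% in litter 2.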

How the results depend on the processing

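With 2 arrays per genotype the fit had 2 residual degrees of freedom, and leaving out an array left 1, so lost calls there come in part from fewer samples. No member passed the adjusted test in any alternative. In a limma fit on 1 probe set per gene, 42 of 9894 genes passed it, no member among them, and Hmgcs1 had the lowest member value, an adjusted p of 0.0622. With the replicate block, 1 member (Sqle) passed the study's thresholds in place of 4 (Scd1 included), and 135 probe sets in place of 267. Without 1 array 0 to 3 members passed them, 0 without wt replicate 1, and 4 to 13 in place of 15 were lower at an unadjusted limma p under 0.05, 4 without cKO replicate 1 and 8 without cKO replicate 2. The cause of the other shifts was not tested. The median of the sterol arm stayed between -0.41 and -0.34. That of the fatty acid arm (-0.015) ran between -0.090 without cKO replicate 2 and 0.10 without cKO replicate 1, and was also above 0 without either wt array. That of the regulators (-0.08) was -0.094 after median centring and -0.065 after quantile normalization. The sign turned for Ebp (-0.0020 after median centring) and, after quantile normalization, for Lpin1 (0.010) and Nsdhl (0.020). Without 1 array, differences near 0 also turned sign, with ranges of -0.081 to 0.10 for Ebp, -0.17 to 0.10 for Elovl5, -0.026 to 0.36 for Fads1, -0.090 to 0.060 for Fads2, -0.0024 to 0.088 for Insig2, -0.037 to 0.025 for Lpin1, -0.16 to 0.16 for Nsdhl and -0.046 to 0.40 for Scd2. Mvk (-0.31 to -0.075), Mvd (-0.30 to -0.036), Sc5d (-0.30 to -0.033) and Insig1 (-0.30 to -0.11) stayed lower but moved by over 1.5 times. Hmgcs1 (-0.80 to -0.65), Idi1 (-0.81 to -0.63) and Sqle (-0.95 to -0.70) kept their direction without any 1 array.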

Other observations

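Among genes that supply NADPH to these pathways, Idh1, the cytosolic isocitrate dehydrogenase, was at 9.47 and 9.55 in cKO, against 9.02 and 8.50 in wt, a difference of 0.75 (SE 0.20, limma, adjusted p = 0.417). Mthfd1, an enzyme of folate metabolism, was at 8.62 and 8.35 in cKO, against 9.15 and 8.90 in wt (-0.54, SE 0.15, limma, adjusted p = 0.443). Neither gene's groups overlapped, which held for 23.7% of all tested probe sets lower in cKO and 16.4% higher. Of the 3 genes measured in this list, Pgd differed by 0.04 (SE 0.15), with overlap.

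Of 15 measured genes of fatty acid oxidation 12 were lower by sign, beside 55.1% of all tested probe sets, with a median difference of -0.05. An unadjusted limma p under 0.05 was reached by 1, beside 4.81% of all probe sets lower and 4.57% higher. This was Hadh, a dehydrogenase of the mitochondrial spiral, which was higher at 9.58 and 9.55 in cKO, against 8.87 and 9.12 in wt (0.57, SE 0.12, limma, adjusted p = 0.330). Of 8 genes of lysosomal cholesterol handling and esterification (median -0.10), Npc2, which binds cholesterol in the lysosome, was at 10.30 and 10.35 in cKO, against 9.76 and 9.76 in wt (0.57, SE 0.08, limma, adjusted p = 0.223).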
